A study of Mus musculus with 12 samples.

Results

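Prostate leukocytes of mice given a Tumor transfer were compared with those of mice given an Allo/Y transfer, both 1 week after adoptive transfer of T cells, the comparison being read gene by gene and by gene family. It takes 6 of the 12 arrays of the series: samples 4, 5 and 6 (Tumor) and samples 1, 2 and 3 (Allo/Y), with RNA of 1 mouse on each array as far as the design text states. Genes enter through the 23054 of 45281 array probes that passed a detection p of 0.05 on 3 or more of the 12 arrays, and these stand for 11971 named genes. All mice carried the TRAMP transgene on the C57Bl/6 strain, in which the probasin promoter drives viral T antigens in prostate epithelium, so both groups share the transgene and differ in the transfer. What Allo/Y abbreviates is not spelled out in the labels, and no untreated mice are among the 12 arrays. The other arrays, of a combined Tumor+Allo/Y transfer at 1 week and at day 28, entered only the estimate of the spread and the values set beside Tumor below. Every level is a log2 normalized signal, listed in the order of samples 1, 2, 3 and 4, 5, 6. Every difference is a log2 difference, Tumor minus Allo/Y, with its standard error from a limma fit with n = 3 arrays per group. A gene was called higher or lower at a Benjamini-Hochberg adjusted p under 0.05 over all 11971 genes.

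As background, T cells and natural killer cells that meet their target release interferon gamma, which acts through JAK and STAT proteins on nearby cells. These then express guanylate-binding GTPases, the chemokines CXCL9 and CXCL10 that attract CXCR3-bearing T cells, and the machinery that presents peptides on MHC molecules. Macrophages under the same signal switch on antimicrobial enzymes and complement factors. The prostate itself is a gland of secretory luminal and basal epithelium, and cells sorted for CD45, the surface phosphatase of leukocytes, should hold little RNA of these epithelial cells.

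On these 6 arrays, between 41.9% and 47.9% of probes were detected above background. Allo/Y samples correlated with each other at 0.986 to 0.993 over all genes, Tumor samples 4 and 5 at 0.990, and Tumor sample 6 with these at 0.899 and 0.925. Sample 6 stands apart within its group. It correlated at 0.970 and 0.975 with samples 7 and 9 of the combined transfer, higher than with its own group, whereas sample 8 of the combined transfer correlated with samples 4 and 5 at 0.983 and 0.982. Results that turn on sample 6 are given with and without it. Over all genes the median SD between arrays was 0.133 for Allo/Y and 0.290 for Tumor. The CD45 gene Ptprc stood at 5.38, 5.37 and 5.67 in Allo/Y and 6.65, 7.65 and 7.97 in Tumor. The background level was 4.95, 5.03 and 5.00 on the Allo/Y arrays, so the Ptprc probe was dim there. RNA of other cells was present in both groups: the keratin gene Krt8 read 14.11, 13.83 and 13.78 in Allo/Y and 13.46, 13.19 and 9.68 in Tumor, and the hemoglobin gene Hba-a1 14.01, 14.03 and 14.44 in Allo/Y and 13.67, 13.48 and 10.64 in Tumor. Keratin and hemoglobin genes thus gave some of the brightest signals on arrays labelled as CD45+ cells, most so in Allo/Y. Fewer cells of a type and less RNA per cell cannot be told apart in such bulk samples.

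Tumor samples differed from Allo/Y samples in a large share of the transcriptome. Of 11971 genes, 2182 were higher (18.2%) and 2633 lower (22%), in all 4815 (40.2%). Without sample 6 the counts were 1731 higher (14.5%) and 2003 lower (16.7%), in all 3734 (31.2%). Calls over all genes numbered 2996 without sample 1, 1500 of them lower, and 5336 without sample 4, 2915 of them lower. List counts below are to be read beside these all-gene counts and shares. Called changes of at least 4 on the log2 scale numbered 10 upward and 2 downward, those of at least 3 numbered 60 and 41, and those of at least 1 numbered 1178 and 1373. The 3 Tumor samples all lay above the 3 Allo/Y samples in 3157 genes (26.4%) and all below in 3682 (30.8%). Over single probes, 4094 of 23054 were higher (17.8%) and 4406 lower (19.1%). With median scaling in place of quantile normalization the split turned to 2226 genes higher and 1707 lower, so which direction holds more genes depends on the scaling.

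**Figure D1:**
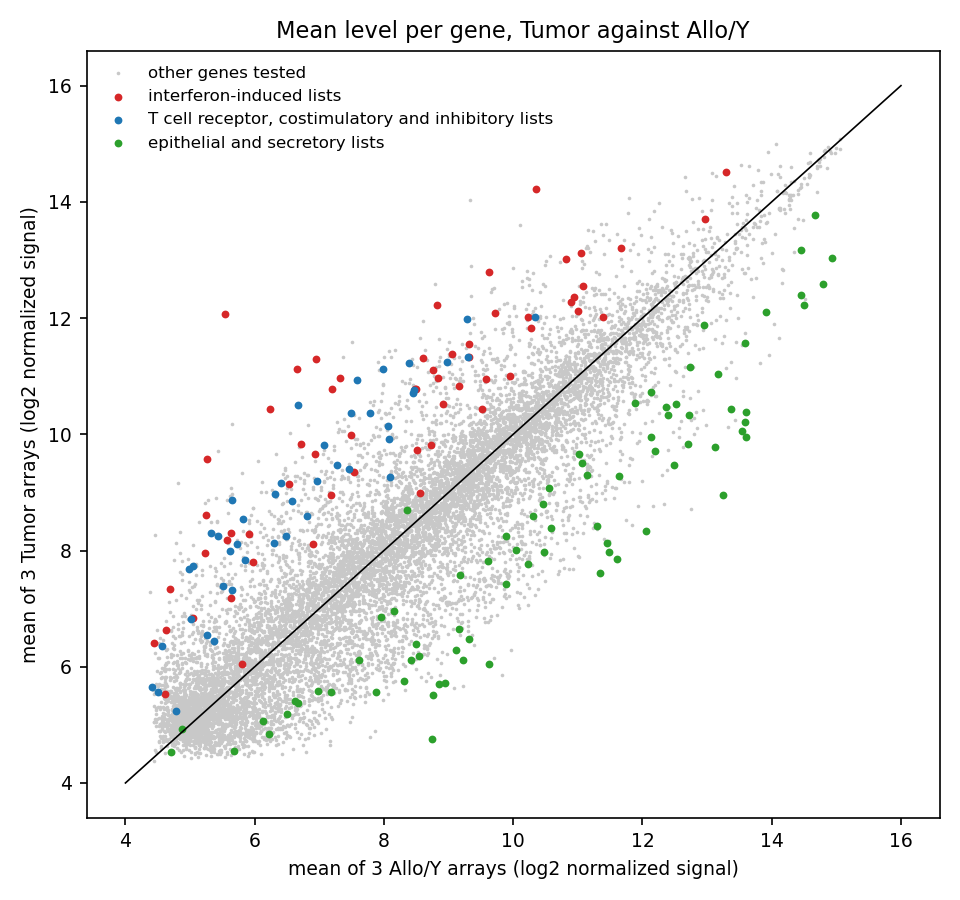
Mean log2 normalized signal of each of 11971 genes on the 3 Tumor arrays (vertical) against the 3 Allo/Y arrays (horizontal), with the line of equality. Interferon-induced genes (red) and T cell genes (blue) mostly lie above the line and most epithelial and secretory genes (green) below it.

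Genes expressed in all leukocytes rose together. All 20 measured members of this list were higher in Tumor, and 20 without sample 6, with a median difference of 2.05 against -0.02 over all genes. The mean level of the list was 8.91, 9.15 and 9.08 in Allo/Y and 10.80, 10.92 and 11.28 in Tumor, a difference of 1.95 between the group means. Was, whose product links receptors to actin in blood cells, rose by 2.42 ± 0.20. Laptm5, a lysosomal protein of leukocytes, rose by 0.97 ± 0.12 and Cd52 by 0.75 ± 0.19. Epithelial markers moved the other way: of 18 epithelial adhesion and junction genes 13 were lower, and their mean level was 9.62, 9.60 and 9.49 in Allo/Y and 8.69, 8.57 and 6.54 in Tumor. Endothelial identity genes had a mean level of 7.65, 6.77 and 7.88 in Allo/Y and 6.47, 6.22 and 6.19 in Tumor. The part of this change of makeup in the rise or fall of any family below was not tested. For most rising families a second scale is given, with every array shifted to an equal mean of these leukocyte genes. Where not printed below, it read 1.59 for Schlafen genes, 0.35 for T cell coreceptors and 0.06 for the MS4A family. Below 0 were immunoproteasome (-0.15), inflammasome (-0.43), chemokine receptors (-0.50), the itaconate list (-0.58), Fc receptors (-0.70), Toll-like receptors (-0.78) and complement (-0.81). Lower still were interleukins (-1.20), neutrophil markers (-1.44), cathepsins (-1.49), constitutive proteasome (-1.53) and B cell markers (-1.75). On that scale the median of all genes moved from -0.02 to -1.97, and a family whose median rose by less than 1.95 reads below 0.

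The 15 largest called rises without overlap of the groups held many genes known to be induced by interferon gamma. Lack of overlap was a condition for picking these and the 15 largest falls, so it is no further result for them. Gbp2b, a guanylate-binding GTPase (formerly Gbp1), stood at 5.31, 5.49 and 5.79 in Allo/Y and 11.00, 11.81 and 13.38 in Tumor. The lowest Tumor sample lay more than 5 log2 units above the highest Allo/Y sample, and sample 6 was the highest of all. The difference was 6.53 ± 0.65, adjusted p = 0.000112, and 5.87 without sample 6. Cxcl9, the CXCR3 ligand, stood at 9.41, 9.17 and 9.43 in Allo/Y and 13.27, 14.27 and 14.54 in Tumor. Again the groups lay far apart, at 4.69 ± 0.38, adjusted p = 4.30e-05. The other leading rises were those of Slfn1, a Schlafen gene named for its effect on thymocyte growth (4.47 ± 0.41), Serpina3f, a protease inhibitor (4.34 ± 0.49), Batf2, a basic leucine zipper factor of macrophages (4.30 ± 0.70), Calhm6, a channel protein of interferon-exposed myeloid cells (4.21 ± 0.70), Gbp2 (3.87 ± 0.42), the T cell inhibitory receptor Ctla4 (3.84 ± 0.33) and the CD8 beta chain Cd8b1 (3.79 ± 0.32). Myeloid genes completed the group: the chitinase-like genes Chil3 (4.53 ± 0.68) and Chil4 (4.27 ± 0.72), the hexokinase gene Hk3 (4.08 ± 0.73) and Acod1 (3.96 ± 0.78), which makes itaconate. Cfb, complement factor B, was not above background on any Allo/Y array, and was at least 18-fold higher in Tumor (adjusted p = 0.000885), with levels of 8.26, 8.80 and 10.42. Such a bound sets the mean of the bright group against the background level of the dim group's arrays. Prm1, a protamine of spermatids, also lay below background in Allo/Y and was at least 9.66-fold higher (adjusted p = 0.0178), with levels of 6.37, 7.82 and 10.59, and both of its probes were called. The call was lost without Allo/Y sample 1 (adjusted p = 0.0507).

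**Figure D2:**
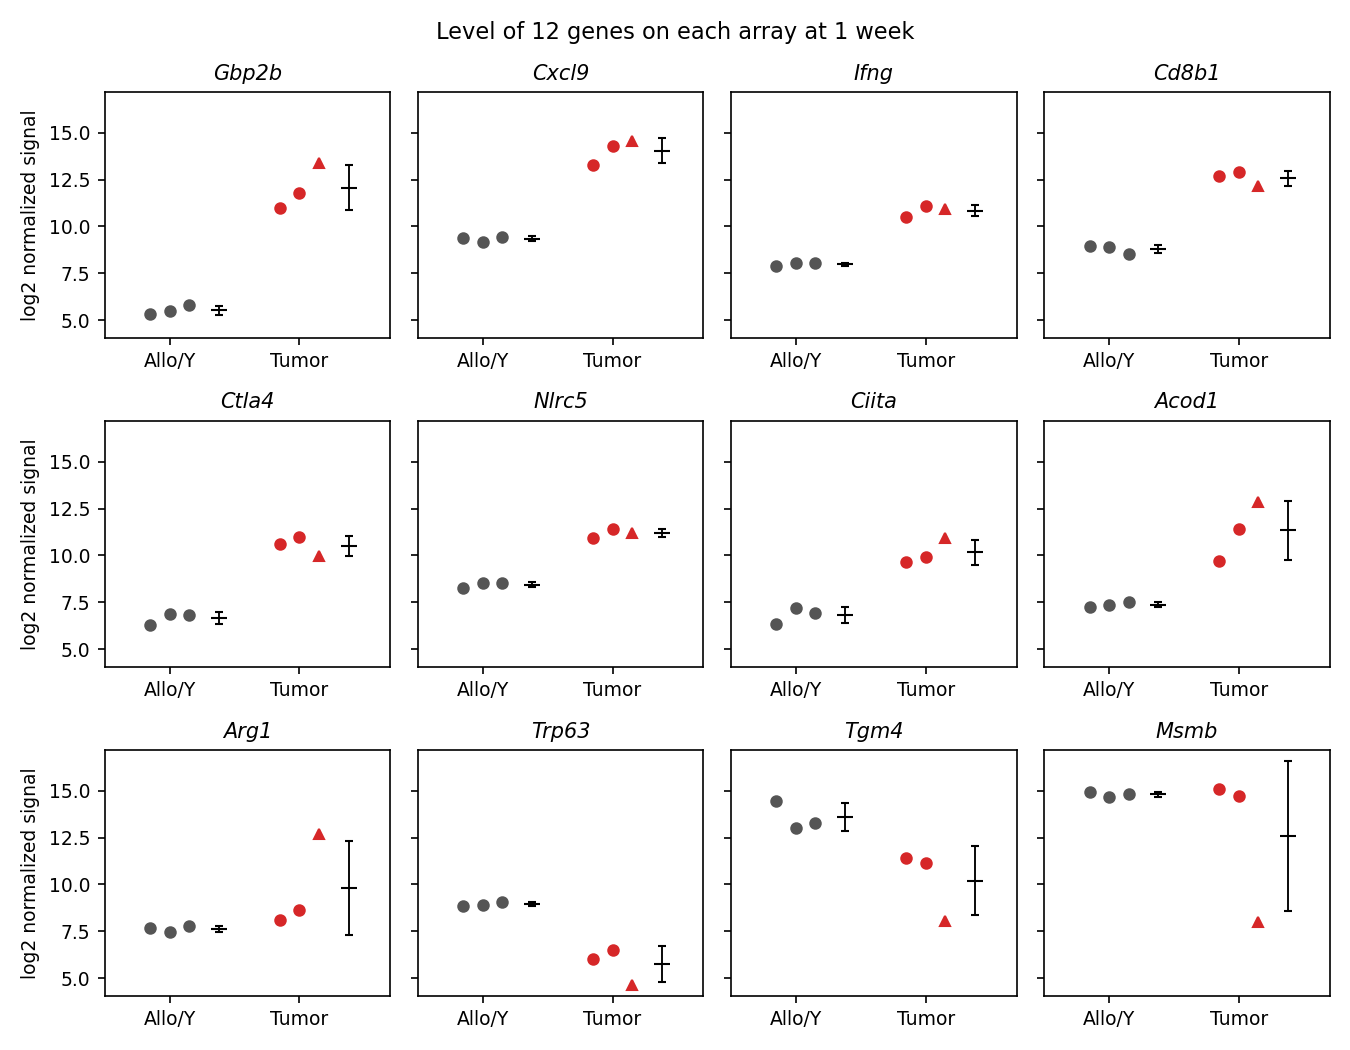
Level (log2 normalized signal) of 12 genes on each Allo/Y array (grey) and Tumor array (red), with sample 6 as a triangle, and mean ± SD (n = 3) in black. Gbp2b, Cxcl9, Ifng, Cd8b1, Ctla4, Nlrc5, Ciita and Acod1 do not overlap between the groups and are higher in Tumor, Trp63 and Tgm4 are lower, and in Arg1 and Msmb sample 6 lies far from samples 4 and 5.

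The promoters of leading interferon-induced genes are shown because several carry the letters to which interferon-activated factors are known to bind. Sequences run from 250 bases before to 50 after the annotated start (RefSeq, build GRCm38.p6), and of the 15 leading genes 12 had an entry. Capitals mark matches to the core of the interferon-stimulated response element (GAAA, any 2 bases, GAAA) or to the gamma-activated site (TTC, any 3 bases, GAA), searched on both strands. For Serpina3f and Irf1 the first of the listed starts is shown, and Irf1 is not among the 15. At the second start, the window of Irf1 held neither motif and that of Serpina3f held its site at 210 bases before the start. Matches of the 2 motifs did not overlap in these windows.
Gbp2b (chr3:142594597-142594896, plus strand): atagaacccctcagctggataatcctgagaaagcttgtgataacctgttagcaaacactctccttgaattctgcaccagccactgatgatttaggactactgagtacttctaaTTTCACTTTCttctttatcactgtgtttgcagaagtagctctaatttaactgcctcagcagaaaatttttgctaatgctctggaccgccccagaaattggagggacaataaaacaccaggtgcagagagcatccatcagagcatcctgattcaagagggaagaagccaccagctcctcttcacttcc
Gbp2 (chr3:142620413-142620712, plus strand): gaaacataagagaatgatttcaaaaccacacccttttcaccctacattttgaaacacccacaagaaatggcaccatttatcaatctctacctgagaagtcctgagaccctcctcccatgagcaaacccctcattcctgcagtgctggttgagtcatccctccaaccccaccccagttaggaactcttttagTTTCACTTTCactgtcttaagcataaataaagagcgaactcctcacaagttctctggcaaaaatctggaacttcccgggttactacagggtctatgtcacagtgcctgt
Calhm6 (chr10:34127923-34128222, minus strand): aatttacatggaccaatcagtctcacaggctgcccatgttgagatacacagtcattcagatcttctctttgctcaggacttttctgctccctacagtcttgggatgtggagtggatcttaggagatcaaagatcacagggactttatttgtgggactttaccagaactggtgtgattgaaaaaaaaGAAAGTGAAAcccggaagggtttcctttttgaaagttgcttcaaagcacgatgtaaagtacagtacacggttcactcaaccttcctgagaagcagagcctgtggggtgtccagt
Serpina3f (chr12:104214294-104214593, plus strand): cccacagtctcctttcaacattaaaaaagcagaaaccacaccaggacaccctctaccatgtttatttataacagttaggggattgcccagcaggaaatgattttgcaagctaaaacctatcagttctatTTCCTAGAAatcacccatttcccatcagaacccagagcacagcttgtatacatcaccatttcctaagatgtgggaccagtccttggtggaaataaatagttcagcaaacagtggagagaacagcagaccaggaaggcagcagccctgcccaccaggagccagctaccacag
Irf1 (chr11:53769764-53770063, plus strand): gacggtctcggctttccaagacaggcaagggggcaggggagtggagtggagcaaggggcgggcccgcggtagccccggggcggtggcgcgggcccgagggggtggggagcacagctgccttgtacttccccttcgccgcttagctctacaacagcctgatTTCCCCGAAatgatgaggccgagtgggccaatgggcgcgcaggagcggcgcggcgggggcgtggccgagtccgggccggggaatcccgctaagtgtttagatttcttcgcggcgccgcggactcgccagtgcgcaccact
Cxcl9 (chr5:92328030-92328329, minus strand): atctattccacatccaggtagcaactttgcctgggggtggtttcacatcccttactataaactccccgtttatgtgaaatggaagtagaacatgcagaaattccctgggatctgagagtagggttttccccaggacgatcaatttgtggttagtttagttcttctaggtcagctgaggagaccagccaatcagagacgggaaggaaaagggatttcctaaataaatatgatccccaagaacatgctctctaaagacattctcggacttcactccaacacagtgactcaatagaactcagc
The response element match has the same 10 letters in all 3 genes that hold it, on one strand in Gbp2b and Gbp2 and as the reverse complement in Calhm6, at 137, 59 and 64 bases before the start. Serpina3f and Irf1 hold a gamma-activated site at 121 and 90 bases before the start shown, and these letters were not found in the window of Cxcl9. Each motif was found in 3 of the 12 leading genes with an entry. The response element core was found in 6.75% of 1733 genes called higher, 2.88% of 2120 called lower and 3.89% of all 9654 tested genes with an entry. The gamma-activated site was found in 10.7%, 8.25% and 8.45% of the same groups. The exact 10 letters of Calhm6 on either strand, picked after these promoters were seen, stood in 1.38% of genes called higher, 0.142% of those called lower and 0.435% of all tested. A match describes the letters only.

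Nearly all measured members of the smaller interferon-induced families and of the interferon-inducible GTPases rose. Of 15 interferon-inducible GTPases 14 were higher and 1 was not called (median 2.72, 2.48 without sample 6, and 0.77 relative to leukocyte genes). Ifi47, an immunity-related GTPase, stood at 6.94, 7.29 and 7.35 in Allo/Y and 9.77, 10.87 and 11.71 in Tumor. Its groups did not overlap, and the difference was 3.59 ± 0.49, adjusted p = 0.000589. Gbp3 (3.42 ± 0.45), Gbp5 (3.37 ± 0.59), which promotes inflammasome assembly, and Igtp (3.17 ± 0.31) rose as well. The smallest called change was that of Irgm1 (0.75 ± 0.18, adjusted p = 0.0110), whose other probes gave 2.32 and 1.54. Gbp9, above background on no Allo/Y array and 2 of 3 Tumor arrays, was not called (adjusted p = 0.0627, and 0.0177 without sample 4). All 6 DNA-sensing Ifi200 genes rose (median 1.98, 1.45 without sample 6, 0.03 relative to leukocyte genes). Differences ran from 1.55 for Aim2, the sensor of the DNA inflammasome, to 3.65 for Ifi205. Ifi204 and Ifi211 were not above background in Allo/Y and were at least 3.12-fold and 2.66-fold higher (adjusted p = 0.0205 and 0.0446). Both lost the call without sample 6, at adjusted p = 0.0593 and 0.143, and also without Allo/Y sample 1 or 3, Ifi211 further without sample 2 or 5. Both measured Schlafen genes rose, Slfn2 by 2.62 ± 0.46. The 4 genes of the Serpina3, Calhm6 and Batf2 list rose too, with the largest median of any list (4.25, 2.30 relative to leukocyte genes). These lists were drawn up with earlier results of these data known, so their medians are descriptions.

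Antiviral genes of the type I interferon response rose with a median somewhat below that of leukocyte genes. Of 32 measured members 30 were higher and 2 not called (median 1.64, 1.5 without sample 6), which is -0.31 relative to leukocyte genes. Isg15, a ubiquitin-like modifier, stood at 9.50, 9.85 and 9.78 in Allo/Y and 11.77, 12.26 and 12.22 in Tumor. Sample 6 was close to sample 5 here, the groups did not overlap, and the difference was 2.37 ± 0.22, adjusted p = 7.28e-05. Irf7, the master regulator of type I interferon production, rose by 2.35 ± 0.27, and the retroviral restriction factor Trim30a by 2.5 ± 0.28. Oas3, a sensor of double-stranded RNA, was not above background in Allo/Y and was at least 5.09-fold higher in Tumor (adjusted p = 0.00188). Adar, which edits double-stranded RNA, gave 0.44 ± 0.18, adjusted p = 0.0704 with the brightest probe and passed without sample 6 (adjusted p = 0.0142), and its 4 other probes, from 0.59 to 1.40, were called higher. Oas1b gave 0.24 ± 0.20, adjusted p = 0.374.

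The chain from interferon gamma to its targets rose at most steps. Ifng stood at 7.88, 8.03 and 8.03 in Allo/Y and 10.52, 11.07 and 10.94 in Tumor. All Tumor samples lay well above Allo/Y, sample 6 between the other two, and the difference was 2.86 ± 0.33, adjusted p = 0.000247. Of 22 measured genes of the chain 17 were higher and 5 not called (median 1.37, -0.58 relative to leukocyte genes). Without sample 6 the number higher was 15 (median 1.03). Upstream, the receptor genes that let lymphocytes sense IL-12 and IL-18 were among the strongest: Il12rb1 was below background in Allo/Y and at least 10.00-fold higher (adjusted p = 0.000466), and Il18rap, above background on 1 of 3 Allo/Y arrays, rose by 3.04 ± 0.27. Stat4, which carries the IL-12 signal, rose by 2.62 ± 0.34. Downstream, the transcription factor genes Irf8 and Irf1 rose by 2.35 ± 0.24 and 1.73 ± 0.22. The receptor chain Ifngr2 gave -0.56 ± 0.21, adjusted p = 0.0593, Jak1 rose by 0.86 ± 0.21, and the cytokine Il15 gave 0.24 ± 0.19, adjusted p = 0.335. Il18 (1.40 ± 0.46, adjusted p = 0.0332) was no longer called without any 1 of samples 1, 2, 3 or 6, with adjusted p from 0.0726 to 0.0857.

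Genes of peptide presentation moved unevenly along the class I pathway. Nlrc5, the transactivator of class I genes, stood at 8.27, 8.55 and 8.51 in Allo/Y and 10.95, 11.41 and 11.21 in Tumor. The 3 Tumor samples lay within 0.5 of each other, and the difference of 2.75 ± 0.16, adjusted p = 2.22e-05 was hardly altered without sample 6 (2.74). Tap1, which pumps peptides into the endoplasmic reticulum, rose by 2.48 ± 0.27, and the inducible proteasome subunits Psmb9, Psmb8 and Psmb10 rose by 2.06 ± 0.23, 1.87 ± 0.26 and 1.80 ± 0.32. Of 5 immunoproteasome genes 4 were higher, the exception being the activator subunit Psme2 (0.75 ± 0.32, adjusted p = 0.0822), which passed without sample 4 (adjusted p = 0.0161). Constitutive proteasome subunits, in contrast, had a median of 0.42. There 4 of 11 were called higher, 0 without sample 6 and 0 also without sample 1, 2, 3 or 5, while Psmb6 gave -0.01 ± 0.13, adjusted p = 0.951. Of 14 other class I genes 9 rose, 1 fell and 4 were not called (median 1.08, -0.87 relative to leukocyte genes). The nonclassical gene H2-M3 rose by 1.77 ± 0.22. The light chain gene B2m stood at 14.79, 14.66 and 14.75 in Allo/Y and 14.69, 14.80 and 14.59 in Tumor, at the bright end of the scale. Its groups overlapped, with a difference of -0.04 ± 0.11, adjusted p = 0.786. The heavy chain gene H2-K1 gave 0.56 ± 0.18, adjusted p = 0.0286 on its brightest probe, a call lost without sample 1, 3, 4 or 5 (adjusted p up to 0.110). Its other probes gave 0.80 and 1.27 and were called higher. Pdia3, the disulfide isomerase of peptide loading, was the 1 member called lower (-0.54 ± 0.19, adjusted p = 0.0442), and lost the call without sample 1, 2, 3, 4 or 6.

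All 17 measured genes of MHC class II presentation rose (median 1.90, 1.51 without sample 6, -0.05 relative to leukocyte genes). Ciita, the master regulator of class II genes, stood at 6.34, 7.21 and 6.92 in Allo/Y and 9.64, 9.92 and 10.92 in Tumor. Every Tumor sample was above every Allo/Y sample, and the difference was 3.33 ± 0.41, adjusted p = 0.000327. Genes of the peptide exchange factor, H2-DMb1 (2.83 ± 0.35), H2-DMb2 (2.51 ± 0.34) and H2-DMa (2.37 ± 0.31), rose more than the abundant class II chain H2-Aa (1.15 ± 0.16) and the invariant chain Cd74 (0.92 ± 0.16) on this scale. Cd74 already stood at 13.53, 14.18 and 14.13 in Allo/Y, near the upper end of the signal. Other Cd74 probes gave 0.80 and 1.63 and were called higher. The costimulatory receptor gene Cd40 rose by 3.35 ± 0.38 and Cd80 by 2.10 ± 0.38.

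T cell genes rose as a block. All 20 measured genes of the T cell receptor complex and its proximal signaling were higher in Tumor (median 2.27, 2.52 without sample 6, 0.32 relative to leukocyte genes). The mean level of the list was 6.82, 7.08 and 7.02 in Allo/Y and 9.37, 9.45 and 8.89 in Tumor. Unlike the interferon-induced lists, it was lowest in sample 6 among the Tumor samples. Cd247, the zeta chain, stood at 5.17, 5.27 and 5.54 in Allo/Y and 8.38, 8.57 and 7.98 in Tumor. No sample of one group reached the other, and the difference was 2.98 ± 0.24, adjusted p = 4.05e-05. Cd6, an adhesion receptor of T cells, rose by 3.15 ± 0.47, Cd2 by 2.88 ± 0.32 and Cd3e by 2.26 ± 0.40. Themis, which tunes receptor signals in thymocytes, was not above background in Allo/Y and was at least 1.58-fold higher (adjusted p = 0.00157).

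Among coreceptors the CD8 beta chain Cd8b1 stood at 8.93, 8.90 and 8.52 in Allo/Y and 12.69, 12.91 and 12.14 in Tumor on the probe used. Its groups lay apart without overlap (3.79 ± 0.32, adjusted p = 4.85e-05), a second probe gave 3.67, and 1 more gave -0.41 and was not called. Cd4 was not above background in Allo/Y and was at least 1.39-fold higher, above background on 2 of 3 Tumor arrays (adjusted p = 0.0200), a call lost without sample 2, 3, 4 or 5 (adjusted p from 0.0511 to 0.0641). Of 13 costimulatory receptor genes 12 rose (median 2.59, 0.64 relative to leukocyte genes), led by the activation-induced TNF receptors Tnfrsf4 (OX40, 3.36 ± 0.37) and Tnfrsf9 (4-1BB, 3.21 ± 0.23). Icos rose by 2.75 ± 0.32 and Cd28 by 2.75 ± 0.41. Tnfrsf14, the one exception, was above background on no Allo/Y array and 2 of 3 Tumor arrays (adjusted p = 0.0889) and passed without sample 4 (adjusted p = 0.0301).

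Inhibitory receptors rose with the activating ones, in 10 of 11 measured genes (median 1.99, 0.04 relative to leukocyte genes). Ctla4 stood at 6.28, 6.87 and 6.84 in Allo/Y and 10.58, 10.97 and 9.96 in Tumor. All Tumor samples exceeded all Allo/Y samples by more than 3, with a difference of 3.84 ± 0.33, adjusted p = 5.70e-05 and of 4.11 without sample 6. Klrg1, a marker of effector T cells, rose by 2.73 ± 0.33, Tigit by 2.37 ± 0.36, Cd160 by 2.21 ± 0.25, Havcr2 (TIM-3) by 1.83 ± 0.22 and Lag3 by 1.77 ± 0.25. Tox (1.17 ± 0.37, adjusted p = 0.0313), a factor of exhausted T cells, lost its call without sample 1, 2, 3, 4 or 5 (adjusted p up to 0.101). Pdcd1, which encodes PD-1, was the one member not called (0.242 as adjusted p): it was below background in Allo/Y, and 2 of 3 Tumor arrays passed the threshold, at levels of 4.97, 5.45 and 5.30. The genes of its ligands, Cd274 (PD-L1) and Pdcd1lg2 (PD-L2), were in contrast among the stronger rises of the macrophage list. Cd274 rose by 3.54 ± 0.45, and Pdcd1lg2, below background in Allo/Y, was at least 7.16-fold higher (adjusted p = 0.000776).

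Regulatory T cell genes were mixed, with 5 of 10 higher, 1 lower and 4 not called (median 1.06, -0.89 relative to leukocyte genes). Foxp3, the lineage factor, stood at 9.42, 9.43 and 9.28 in Allo/Y and 9.49, 9.71 and 10.41 in Tumor on its brightest probe. That probe was not called (0.49 ± 0.22, adjusted p = 0.0917), although it passed without sample 4 (adjusted p = 0.0267), while 3 other probes of the gene gave 0.77, 2.49 and 3.09 and were called higher. Tnfrsf18 (GITR) rose by 2.59 ± 0.35 and Il2ra, above background on 1 of 3 Allo/Y arrays, by 1.80 ± 0.18. The chemokine receptor gene Ccr8, below background in Allo/Y, was at least 4.45-fold higher (adjusted p = 0.00767), at 7.83, 7.95 and 5.66, with sample 6 well below the other two. Gpr83, a receptor of regulatory T cells and brain, was the member that fell, from 8.78, 9.18 and 8.47 to 6.78, 6.68 and 6.36 (-2.20 ± 0.35, adjusted p = 0.00124).

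Of 13 effector T cell transcription factor genes 10 rose and 2 fell (median 1.52, -0.43 relative to leukocyte genes). Tbx21 (T-bet), the factor of type 1 responses, rose by 2.11 ± 0.33, Eomes by 1.98 ± 0.29 and Batf by 2.17 ± 0.26. Gata3, the factor of type 2 T cells that epithelium also expresses, fell from 11.32, 11.08 and 11.01 to 10.18, 10.02 and 7.68 (-1.84 ± 0.54, adjusted p = 0.0220), but lost the call without Allo/Y sample 1, 2 or 3 (adjusted p from 0.0511 to 0.0690). Id2, an inhibitor of helix-loop-helix factors expressed far beyond lymphocytes, fell by 1.34 (adjusted p = 0.00546). Of 11 naive, memory and residency genes 8 rose (median 1.53, -0.42 relative to leukocyte genes), among them the integrin gene Itga4 (1.87 ± 0.16), Il7r (1.87 ± 0.37) and the homing receptor Ccr7 (1.69 ± 0.29), whereas Klf2, which keeps T cells recirculating, gave -0.10 ± 0.27, adjusted p = 0.795.

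Cytotoxic genes rose with a median close to that of leukocyte genes. Of 13 granule and death ligand genes 10 were higher and 3 not called (median 1.83, -0.12 relative to leukocyte genes). The granzyme gene Gzmk stood at 5.38, 5.80 and 5.28 in Allo/Y and 7.81, 7.87 and 7.68 in Tumor. Tumor samples were nearly level with each other and above Allo/Y, at 2.30 ± 0.26, adjusted p = 0.000216. Nkg7, a granule protein, rose by 2.24 ± 0.28, and Fasl, the death ligand, by 2.05 ± 0.39. The perforin gene Prf1 stood at 11.74, 11.10 and 11.62 in Allo/Y and 11.58, 11.67 and 11.15 in Tumor on the brighter probe, without separation (-0.01 ± 0.27, adjusted p = 0.975), while its other probe gave 2.97 and was called. The lysosomal membrane gene Lamp1 gave 0.05 ± 0.14, adjusted p = 0.818. Of 19 killer cell lectin-like receptor and adaptor genes 18 rose (median 1.99, 0.04 relative to leukocyte genes). Klrk1 (NKG2D), an activating receptor, stood at 5.46, 5.76 and 5.68 in Allo/Y and 8.54, 9.13 and 9.59 in Tumor. Here the groups lay apart by 3.45 ± 0.30, adjusted p = 6.20e-05, and the Ly49 receptor gene Klra2 rose by 3.07 ± 0.55. Klra1 gave 0.90 ± 0.44, adjusted p = 0.127 and passed without sample 6 (adjusted p = 0.0412).

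**Figure D3:**
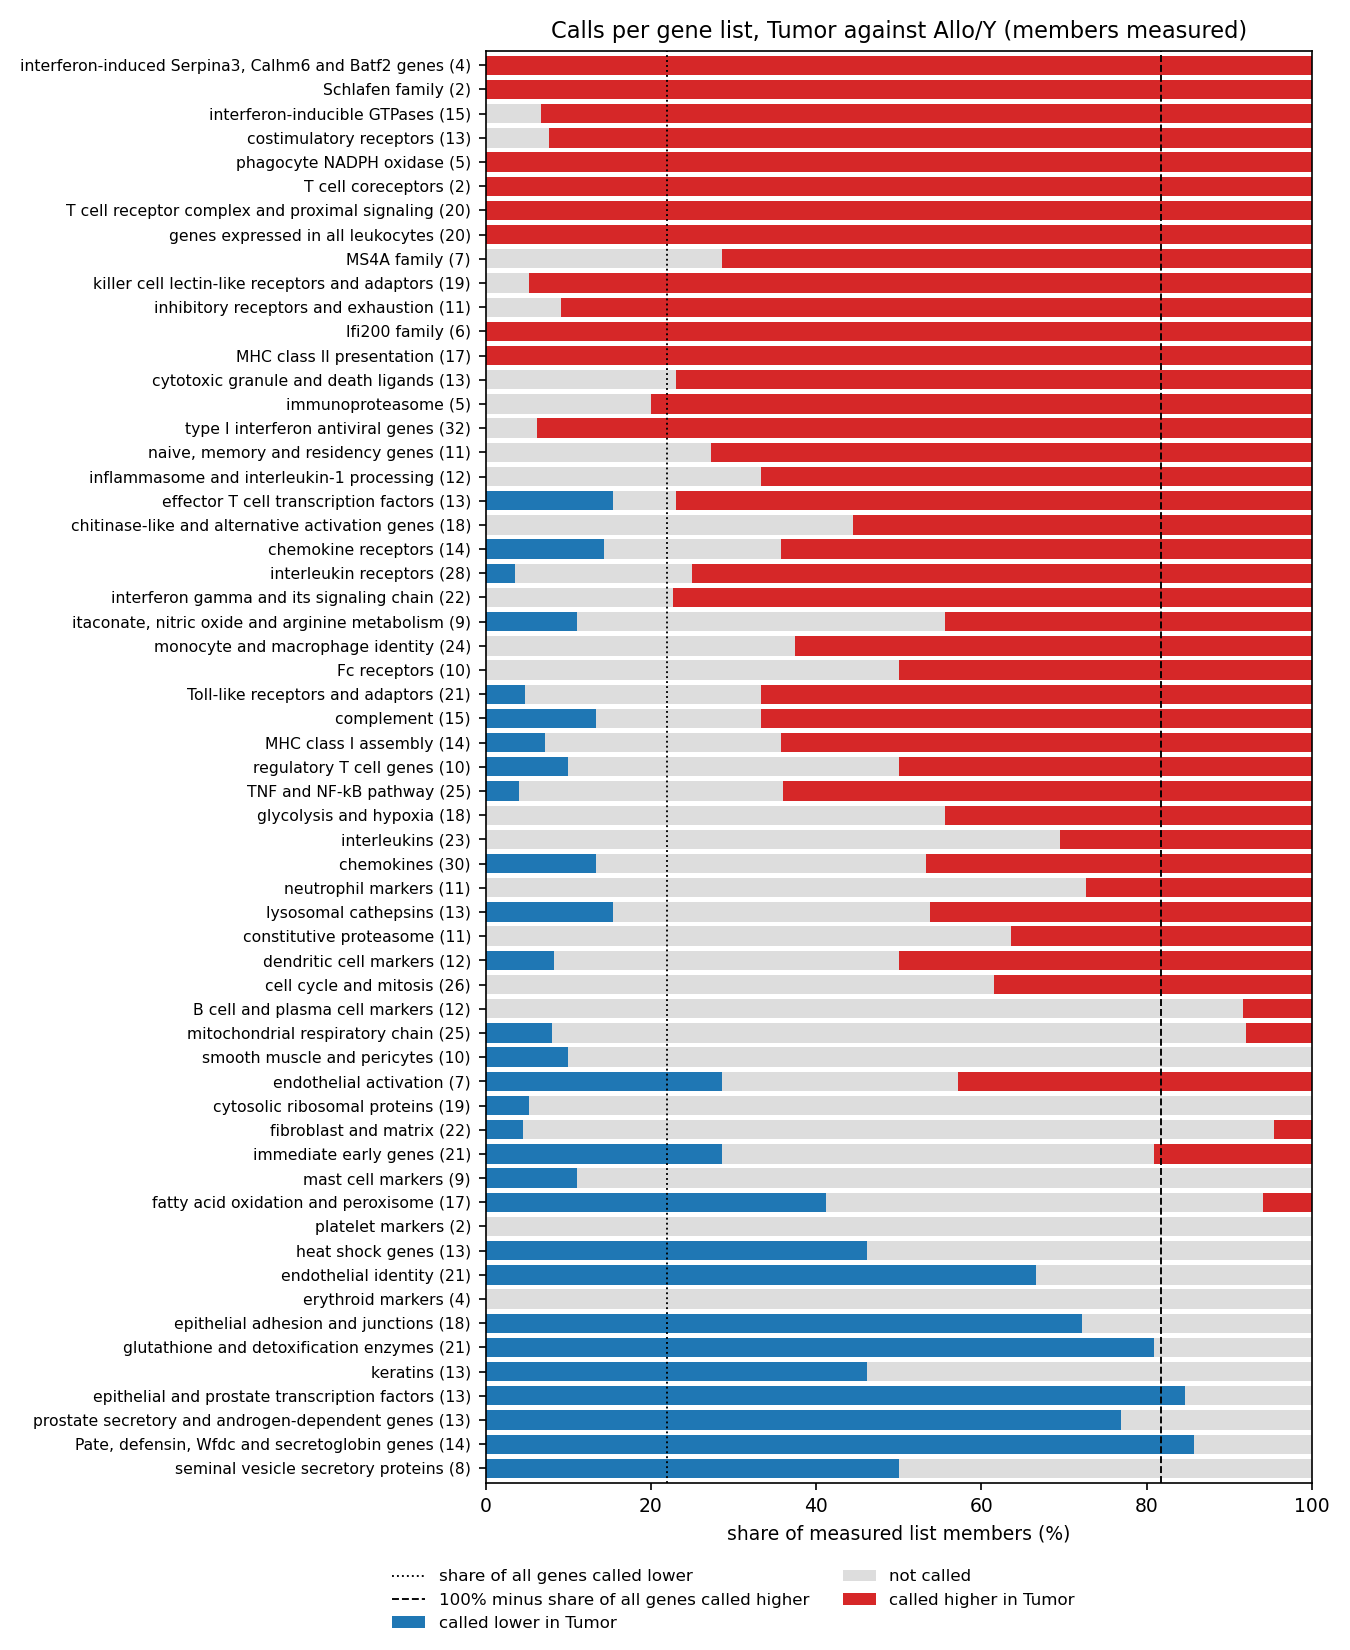
Share of measured members of each of 59 gene lists that were called higher (red), lower (blue) or not called (grey) in Tumor, lists ordered by median difference with the number measured in brackets. The dotted line marks the 22% of all genes called lower, from the left edge, and the dashed line the 18.2% called higher, from the right edge.

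Of 30 measured chemokine genes 14 rose, 4 fell and 12 were not called (median 0.51, -1.44 relative to leukocyte genes). Among all genes 18.2% were called higher and 22% lower. Beside Cxcl9, Cxcl10 stood at 10.30, 10.26 and 10.32 in Allo/Y and 11.68, 12.84 and 12.93 in Tumor. Sample 4 was lower than samples 5 and 6 but above all of Allo/Y, and the difference was 2.19 ± 0.41, adjusted p = 0.00309. Their receptor gene Cxcr3 rose by 2.16 ± 0.33, and the monocyte attractants Ccl2 and Ccl8 by 2.14 ± 0.50 and 1.99 ± 0.39. Ccl3, which activated T cells and macrophages release, did not separate (12.36, 12.50 and 12.20 in Allo/Y and 12.60, 12.34 and 12.38 in Tumor, difference 0.09 ± 0.24, adjusted p = 0.796). The epithelial chemokine gene Cxcl15 fell by 2.90 (adjusted p = 0.00126), above background on 2 of 3 Tumor arrays. The number lower was 1 without sample 1, 1 without sample 3 and 1 without sample 6. Of 14 chemokine receptor genes 9 rose and 2 fell. The 2 that fell encode atypical receptors that scavenge chemokines. Ackr1, of venules and red cells, changed by -2.21 ± 0.39, adjusted p = 0.00229, and Ackr3, not above background on any Tumor array, was at least 1.48-fold lower (adjusted p = 0.00185).

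Most interleukin receptor genes rose. Of 28 measured 21 were higher and 1 lower (median 1.45, -0.50 relative to leukocyte genes), such as Il10ra (2.23 ± 0.26) and Csf2rb (2.35 ± 0.49, above background on 2 of 3 Allo/Y arrays). Of 23 interleukin genes 7 were higher (median 0.75), beside 18.2% of all genes. The number was 4 without sample 1, 4 without sample 3, 4 without sample 6 and 12 without sample 4. The strongest of the 7 was Il1rn, the natural antagonist of interleukin 1 (2.90 ± 0.58). Il2, the growth factor of T cells, rose by 1.59 ± 0.24, and Il10 gave 0.75 ± 0.43, adjusted p = 0.187. In the TNF and NF-kB pathway 16 of 25 genes rose and 1 fell (median 0.98, -0.97 relative to leukocyte genes). The lymphotoxin gene Ltb rose by 2.58 ± 0.36 and Nfkbie, an NF-kB inhibitor, by 2.64 ± 0.30. Tnf itself rose by 0.67 ± 0.16, adjusted p = 0.0103, and the subunit gene Rela gave -0.02 ± 0.16, adjusted p = 0.928.

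Macrophage genes rose with the largest values in sample 6. Of 24 measured monocyte and macrophage identity genes 15 were higher and 9 not called (median 1.35, 1.09 without sample 6, -0.60 relative to leukocyte genes). Ccr2, the receptor that brings monocytes into tissue, stood at 4.91, 5.21 and 5.31 in Allo/Y and 7.17, 8.14 and 10.17 in Tumor, above background on 2 of 3 Allo/Y arrays. The Tumor samples spread over 3 log2 units, all above Allo/Y, and the difference of 3.35 ± 0.81, adjusted p = 0.00981 was 2.51 without sample 6. The sialic acid receptor Siglec1 rose by 2.96 ± 0.48 and the high-affinity IgG receptor Fcgr1 by 2.93 ± 0.55. The pan-macrophage genes Adgre1 and Csf1r rose less on the probes used, by 1.32 ± 0.24 and 1.06 ± 0.28. Other probes gave 1.28 and 1.44 for Adgre1 and 1.96 for Csf1r. Cx3cr1, which resident macrophages express, stood at 9.69, 10.13 and 9.78 in Allo/Y and 10.98, 10.06 and 8.96 in Tumor. It was lowest in sample 6, its groups overlapped, and it was not called (0.13 ± 0.47, adjusted p = 0.840). The efferocytosis receptor Mertk gave -0.46 ± 0.28, adjusted p = 0.219 and was called lower without sample 6 (-0.76, adjusted p = 0.0417).

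Chitinase-like and alternative activation genes were higher in 10 of 18 cases (median 1.48, -0.47 relative to leukocyte genes). Without sample 6 the number higher was 8 (median 1.05). Chil3 (Ym1) stood at 5.66, 5.65 and 5.63 in Allo/Y and 8.96, 10.11 and 11.45 in Tumor. Allo/Y samples were nearly identical, and Tumor samples were all higher, by 4.53 ± 0.68, adjusted p = 0.000974. Its relative Chil1, by contrast, stood at 6.15, 6.38 and 6.47 in Allo/Y and 4.62, 5.79 and 13.35 in Tumor. Only sample 6 was high, more than 7 log2 units above sample 5, and samples 4 and 5 lay below all of Allo/Y (difference 1.59 ± 2.23, adjusted p = 0.596). The arginase gene Arg1 showed the same kind of spread, at 7.65, 7.47 and 7.78 in Allo/Y and 8.12, 8.65 and 12.66 in Tumor. Sample 6 carried the rise, and the difference was 2.17 ± 1.27, adjusted p = 0.192, or 0.75 without it. Acod1 stood at 7.27, 7.34 and 7.5 in Allo/Y and 9.71, 11.42 and 12.87 in Tumor. It was separated on all arrays and kept 3.19 without sample 6. Nos2, the inducible nitric oxide synthase, was not above background in Allo/Y and was above it on 2 of 3 Tumor arrays, at 4.80, 5.64 and 8.08 (adjusted p = 0.157, and 0.0466 without sample 4). In the same metabolic list Ass1, which rebuilds arginine, rose by 2.31 ± 0.41. Gch1, which makes the cofactor of nitric oxide synthase, rose by 1.37 ± 0.16. The mitochondrial arginase gene Arg2 fell by 1.09 (adjusted p = 0.00133). The median of this list was 1.37, and 0.75 without sample 6.

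All 5 measured NADPH oxidase genes were higher (median 2.40, 0.45 relative to leukocyte genes), Ncf1 by 2.90 ± 0.37 and Ncf4 by 2.80 ± 0.33, with the membrane subunit Cybb lowest (1.27 ± 0.34, adjusted p = 0.0159) and not called without sample 1 (adjusted p = 0.0597). Of 10 Fc receptor genes 5 rose. Fcgr4, an activating IgG receptor, stood at 9.71, 10.27 and 10.34 in Allo/Y and 12.96, 13.33 and 14.51 in Tumor. Tumor lay above Allo/Y throughout, by 3.50 ± 0.38, adjusted p = 0.000176. Of 12 inflammasome genes 8 rose (median 1.52, 1.07 without sample 6). Casp4 rose by 2.41 ± 0.35 and Casp1, the protease that matures interleukin 1, by 2.88 ± 0.36. Its substrate Il1b was already bright in Allo/Y, at 12.45, 12.99 and 12.86, and rose by 1.28 ± 0.32 (adjusted p = 0.0118). Toll-like receptor and adaptor genes were higher in 14 and lower in 1 of 21 (median 1.17). The number higher was 9 without sample 1 and 11 without sample 6 (median 0.80 without sample 6). Tlr13, a sensor of bacterial ribosomal RNA, rose by 2.61 ± 0.54, and the adaptor gene Tirap fell by 0.69 (adjusted p = 0.00605). Complement genes rose in 10 and fell in 2 of 15 cases. C4b rose by 1.74 ± 0.27 and Cfp (properdin) by 1.67 ± 0.27, whereas the inhibitor gene Cfi fell by 1.00 (adjusted p = 0.00241).

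Of 13 cathepsin genes 6 rose and 2 fell. Ctsc, which activates granzymes, rose by 1.60 ± 0.33 and Ctss, which cleaves the invariant chain, by 1.90 ± 0.39, while Ctso, above background on 2 of 3 Tumor arrays, fell by 0.99 (adjusted p = 0.00441) and Ctsd gave -0.13 ± 0.23, adjusted p = 0.683. In the MS4A family 5 of 7 rose (median 2.01, 1.42 without sample 6), led by Ms4a6d (2.82 ± 0.54) and Ms4a8a (2.66 ± 0.56). The B cell member Ms4a1 (CD20) was at background on all 6 arrays. Of 12 dendritic cell markers 6 were higher, 1 lower and 5 not called (median 0.42, -1.53 relative to leukocyte genes). Clec9a, the receptor of cross-presenting dendritic cells, rose from 7.00, 7.28 and 7.12 to 9.18, 9.64 and 9.92 (2.45 ± 0.29, adjusted p = 0.000285), without overlap of the groups. Siglech, of plasmacytoid dendritic cells, gave 0.24 ± 0.25, adjusted p = 0.473.

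Most markers of other blood cells were not called, beside 18.2% of all genes called higher and 22% called lower. Of 11 neutrophil markers 3 were higher (median 0.51), and 2 without sample 6 (median -0.03). S100a8 stood at 10.05, 9.90 and 10.94 in Allo/Y and 9.40, 10.24 and 12.78 in Tumor. Only sample 6 exceeded Allo/Y, sample 4 lay below it, and the difference was 0.51 ± 0.75, adjusted p = 0.615. Ngp, a granule gene of immature neutrophils, was at background on all 6 arrays, and the granule gene Ltf gave -0.15 ± 0.65, adjusted p = 0.867. The markers that rose were the receptor genes Il1r2 (2.10 ± 0.41, adjusted p = 0.00371) and Csf3r (2.01 ± 0.54, adjusted p = 0.0160) and the adhesion gene Cd177 (2.64 ± 0.82, adjusted p = 0.0283), the last above background on 2 of 3 Allo/Y arrays. Csf3r lost its call without sample 1 (adjusted p = 0.0544), and Cd177 without any 1 of samples 1, 2, 3, 5 or 6 (adjusted p up to 0.0886). Of 12 B cell and plasma cell markers 1 was higher (median 0.20), namely Tnfrsf13c, the BAFF receptor (above background on 1 of 3 Allo/Y arrays, 1.16 ± 0.34, adjusted p = 0.0211), a call lost without sample 1, 3 or 5. Mast cell markers had 0 higher and 1 lower of 9, Cpa3, the mast cell carboxypeptidase, giving -0.23 ± 0.33, adjusted p = 0.610. The 4 erythroid markers had a median of -1.46 (-0.51 without sample 6) with none called, and up to 3 called lower when sample 4 was left out.

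Immediate early genes moved both ways. Of 21 measured 4 rose and 6 fell (median -0.23), shares near those of all genes, and without sample 6 4 rose and 4 fell (median -0.11). Jun stood at 12.19, 11.78 and 12.28 in Allo/Y and 11.30, 10.87 and 9.55 in Tumor. All Tumor samples were below Allo/Y, with sample 6 lowest (-1.51 ± 0.39, adjusted p = 0.0135, -1.0 without sample 6). Myc fell by 1.01 (adjusted p = 0.000974) and Ier3 by 0.74 (adjusted p = 0.00450), whereas the antigen-induced genes Nr4a2 and Dusp2 rose by 1.49 ± 0.23 and 1.77 ± 0.37. Fos fell by 0.61 (adjusted p = 0.0437), a call lost without sample 1, 3 or 6 (adjusted p up to 0.142). Of 13 heat shock genes 6 were lower, but 0 without sample 1, 0 without sample 3 and 1 without sample 6. The small heat shock gene Hspb1, which epithelium and muscle express, stood at 12.80, 12.66 and 12.81 in Allo/Y and 11.25, 11.35 and 8.12 in Tumor. Its fall of 2.52 (adjusted p = 0.0241) lost the call without any 1 Allo/Y sample (adjusted p up to 0.0662).

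Cell cycle genes showed smaller differences, 10 of 26 being higher (median 0.27, -1.68 relative to leukocyte genes), with 2 without sample 1, 6 without sample 3 and 6 without sample 6. The largest rise was that of the cyclin gene Ccnd2 (1.53 ± 0.16), and the centromere gene Cenpa rose by 1.13 ± 0.26. Cdk1, the mitotic kinase, gave -0.10 ± 0.23, adjusted p = 0.749. Of 18 glycolysis and hypoxia genes 8 rose (median 0.95, -1.0 relative to leukocyte genes), and 6 without sample 6 (median 0.57). Hk3, the hexokinase of myeloid cells, stood at 7.31, 7.76 and 7.47 in Allo/Y and 10.27, 11.35 and 13.16 in Tumor. Sample 6 was nearly 3 above sample 4, and both were above Allo/Y (4.08 ± 0.73, adjusted p = 0.00241). The phosphofructokinase gene Pfkp rose by 3.28 ± 0.40, Gapdh by 1.07 ± 0.21 and Ldha by 0.83 ± 0.18, while its relative Pfkl gave 0.03 ± 0.21, adjusted p = 0.913. Respiratory chain genes showed 2 higher and 2 lower of 25 (median 0.11), and ribosomal protein genes 0 higher and 1 lower of 19 (median -0.10). The shares over all genes were 18.2% higher and 22% lower.

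Epithelial and secretory genes made up the largest falls. Of the 15 largest, Cyp4a12a, an androgen-regulated fatty acid hydroxylase, stood at 10.10, 9.79 and 9.59 in Allo/Y and 6.02, 6.36 and 5.17 in Tumor. Every Tumor sample was more than 3 below every Allo/Y sample, 2 of the 3 were above background, and the difference was -3.98 ± 0.30, adjusted p = 3.40e-05. Pate14, a secreted Ly6-like protein of the male tract, stood at 14.30, 11.48 and 13.94 in Allo/Y and 7.62, 10.25 and 8.98 in Tumor. Allo/Y sample 2 was the lowest of its group, yet above all Tumor samples (-4.29 ± 1.06, adjusted p = 0.0108). Spink11 (-3.99 ± 0.61, above background on 1 of 3 Tumor arrays) and Spink1 (-3.49 ± 0.86), of the protease inhibitor family of seminal fluid, fell too, as did the defensin gene Defb42 (-3.58 ± 0.65), the lipase relative Pnliprp1 (-3.67 ± 0.69) and Cdo1, a cysteine dioxygenase (-3.39 ± 0.75). Depp1, a target of FOXO factors, fell to 6.33, 5.99 and 4.58 from 9.17, 8.95 and 9.11 (-3.44 ± 0.42, adjusted p = 0.000315). For Mme, the endopeptidase CD10, sample 6 was far lower than the others, at 11.31, 11.55 and 11.60 in Allo/Y and 9.82, 9.40 and 4.70 in Tumor. Its difference was -3.51 ± 1.11, adjusted p = 0.0295 with sample 6 and -1.87 without it, and the call was lost without any 1 Allo/Y sample (adjusted p from 0.0698 to 0.0742).

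**Figure D4:**
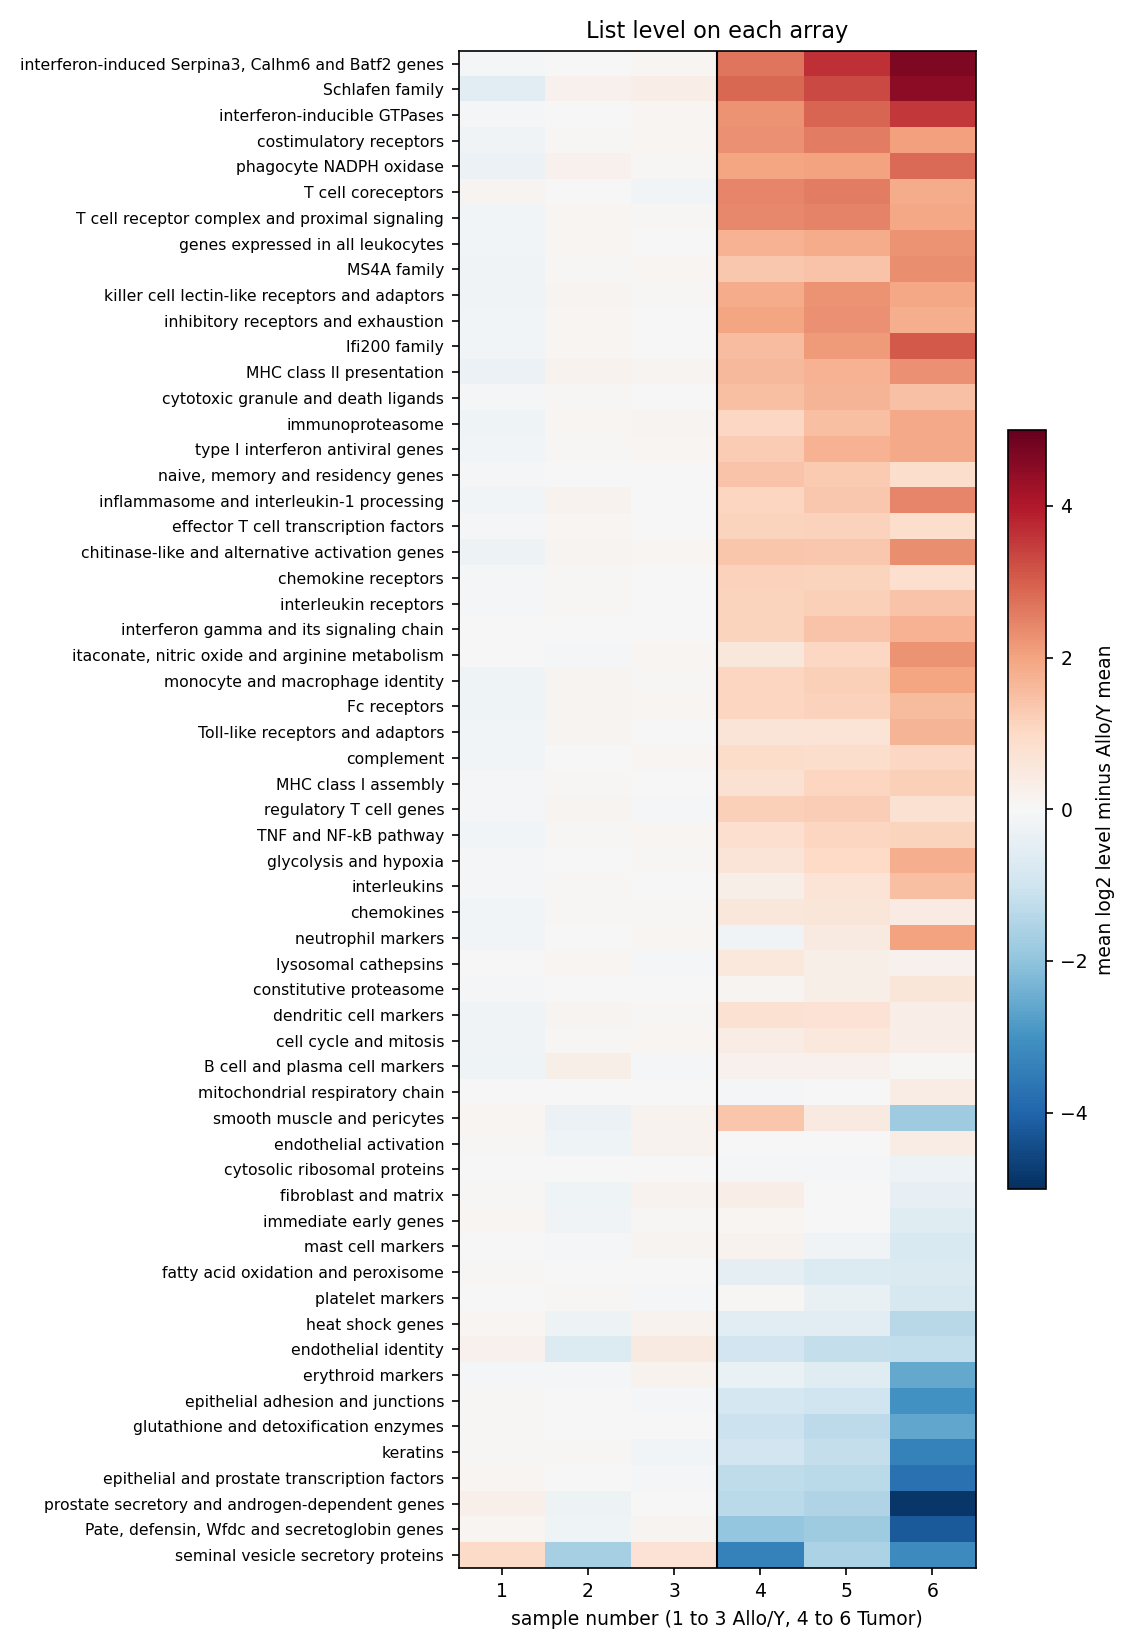
Mean log2 level of each gene list on each array minus the list's mean over the 3 Allo/Y arrays, red above and blue below. Sample 6 is the reddest Tumor column for interferon-induced and phagocyte lists and the bluest for most epithelial lists, and Allo/Y sample 2 is low for seminal vesicle proteins.

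Secretory genes of the prostate fell in 10 of 13 cases (median -2.47, -1.22 without sample 6). The number was 5, 4 and 4 without Allo/Y sample 1, 2 and 3. The list's mean level was 12.25, 11.76 and 11.99 in Allo/Y and 10.66, 10.50 and 7.13 in Tumor. Tgm4, the transglutaminase that clots semen, stood at 14.45, 13.03 and 13.28 in Allo/Y and 11.40, 11.15 and 8.06 in Tumor. The groups did not overlap, as for each of the 15 largest falls by their selection (-3.38 ± 0.82, adjusted p = 0.01). Without sample 6 the difference of Tgm4 was -2.31. Msmb, a major secretory protein, stood at 14.93, 14.64 and 14.82 in Allo/Y and 15.07, 14.70 and 7.98 in Tumor. Samples 4 and 5 lay beside Allo/Y, sample 6 lay almost 7 lower, and no change was called (-2.21 ± 1.49, adjusted p = 0.255, 0.09 without sample 6). Pbsn, whose promoter drives the TRAMP transgene, was not above background on any Tumor array and was at least 1.47-fold lower (adjusted p = 0.0145), with Allo/Y at 6.58, 5.20 and 5.23.

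Seminal vesicle proteins fell in 4 of 8 cases (median -3.09), beside 22% of all genes. The number was 6 without Allo/Y sample 2 and 2, 2 and 2 without sample 1, 3 and 6. Svs2 stood at 13.30, 10.99 and 13.17 in Allo/Y and 10.26, 9.93 and 8.22 in Tumor. Allo/Y sample 2 came within 1 of Tumor sample 4, but the groups did not overlap (-3.02 ± 0.71, adjusted p = 0.00837). Svs3a stood at 11.04, 5.34 and 10.17 in Allo/Y and 4.54, 6.49 and 6.08 in Tumor. Sample 2 lay below Tumor samples 5 and 6, the groups overlapped, and the difference of -3.15 ± 1.37, adjusted p = 0.0895 passed only without sample 2 (adjusted p = 0.00782). In the Pate, defensin, Wfdc and secretoglobin list 12 of 14 fell (median -2.61, -1.86 without sample 6), among them Wfdc3 (-2.84 ± 0.58), Wfdc6b (-3.11 ± 0.66) and Wfdc15b (-3.35 ± 0.86), which encode whey acidic protein domains.

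Structural and regulatory genes of epithelium followed. Of 13 epithelial and prostate transcription factor genes 11 fell and none rose (median -2.08, -1.14 without sample 6), with 6 lower without Allo/Y sample 1, 2 or 3. Trp63, the factor of basal cells, stood at 8.86, 8.90 and 9.08 in Allo/Y and 6.01, 6.52 and 4.66 in Tumor. It was separated by more than 2 and above background on 2 of 3 Tumor arrays (-3.22 ± 0.47, adjusted p = 0.000798). Elf5, a factor of secretory epithelium, fell by 3.25 (adjusted p = 0.00156) and Spdef, of goblet and luminal cells, by 2.36 (adjusted p = 0.00978). Of 13 keratins 6 fell (median -2.0, -0.86 without sample 6), with 4 without sample 2 and 10 without sample 4. The basal keratin genes Krt14 and Krt5 fell by 3.32 and 2.31 (adjusted p = 0.00432 and 0.0119). The luminal keratin genes Krt8 and Krt18 were lower in every Tumor sample but mostly in sample 6, and were not called (-1.80 ± 0.84, adjusted p = 0.111, and -2.0 ± 0.85, adjusted p = 0.0827). Without sample 6 they gave -0.58 and -0.78, and without sample 4 they passed (adjusted p = 0.0403 and 0.0294). Junction genes fell in 13 of 18 cases (median -1.58, -0.91 without sample 6), and in 5, 5, 6 and 8 without sample 1, 2, 3 and 6. Spint2, a protease inhibitor of epithelial surfaces, fell by 2.55 (adjusted p = 0.00360), and E-cadherin, Cdh1, gave -1.36 ± 0.52, adjusted p = 0.0585, with a second probe at -1.82 called lower, the first passing without sample 4 or 5 (adjusted p = 0.0248 and 0.0436).

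Most detoxification enzymes fell. Of 21 glutathione and detoxification genes 17 were lower and none higher (median -1.83, -1.22 without sample 6). The glutathione transferase gene Gsta3 stood at 10.80, 10.80 and 10.50 in Allo/Y and 8.42, 8.02 and 6.37 in Tumor. No overlap was seen, and the difference was -3.09 ± 0.52, adjusted p = 0.00166. Aldh1a1, which makes retinoic acid, fell by 2.82 (adjusted p = 0.00507), with 2 of 3 Tumor arrays above background. Nqo1 and Gpx2 gave -0.24 ± 0.12, adjusted p = 0.128, and -0.30 ± 0.24, adjusted p = 0.333. Of 17 fatty acid oxidation genes 7 fell and 1 rose (median -0.34), beside 22% of all genes called lower and 18.2% called higher. Cpt1a, the gate of mitochondrial fat oxidation, fell by 1.29 (adjusted p = 0.000636), while Hadha gave 0.02 ± 0.18, adjusted p = 0.954.

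Most endothelial identity genes fell. Of 21 identity genes 14 were lower and none higher (median -1.30, -1.24 without sample 6). Emcn, a sialomucin of veins and capillaries, stood at 9.21, 7.72 and 9.11 in Allo/Y and 6.66, 6.00 and 4.99 in Tumor. Allo/Y sample 2 was the lowest of its group but above Tumor (-2.79 ± 0.49, adjusted p = 0.00210). Robo4 (-2.53 ± 0.53), Esam (-2.51 ± 0.48) and Ptprb (-2.10 ± 0.35) fell as well, the VE-cadherin gene Cdh5 fell by 1.16 (adjusted p = 0.00910), and Pecam1 gave -0.15 ± 0.36, adjusted p = 0.757 with its brightest probe while a further probe read 1.09 and was called higher. Among activation genes the selectins Sele and Selp fell by 1.94 and 1.96 (adjusted p = 0.000129 and 0.00878). Icam1, which leukocytes express too, rose from 10.00, 9.81 and 10.05 to 11.31, 11.54 and 11.76 (1.58 ± 0.19, adjusted p = 0.000273). Vcam1 overlapped (-0.08 ± 0.39, adjusted p = 0.893).

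Few stromal genes were called, beside 18.2% of all genes called higher and 22% called lower. Of 22 fibroblast and matrix genes 1 rose and 1 fell (median -0.19), the riser being Thy1 (2.33 ± 0.33), which T cells express as well, and the faller Col15a1 (-0.72 ± 0.22, adjusted p = 0.0272), a call lost without sample 1, 3 or 6. The number lower was 7 without sample 4. Smooth muscle and pericyte genes had a median of -0.01 with 0 higher and 1 lower of 10. Myh11, smooth muscle myosin, stood at 9.50, 8.58 and 9.19 in Allo/Y and 11.40, 9.94 and 5.56 in Tumor. Samples 4 and 5 were above Allo/Y and sample 6 far below it. The difference was -0.12 ± 1.15, adjusted p = 0.942, and without sample 6 it was 1.58 and called higher (adjusted p = 0.0489). Without sample 6 the list's median was 1.26, with 4 members higher. Rgs5, a pericyte gene, was below background in Tumor and at least 1.7-fold lower (adjusted p = 0.00156).

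**Figure D5:**
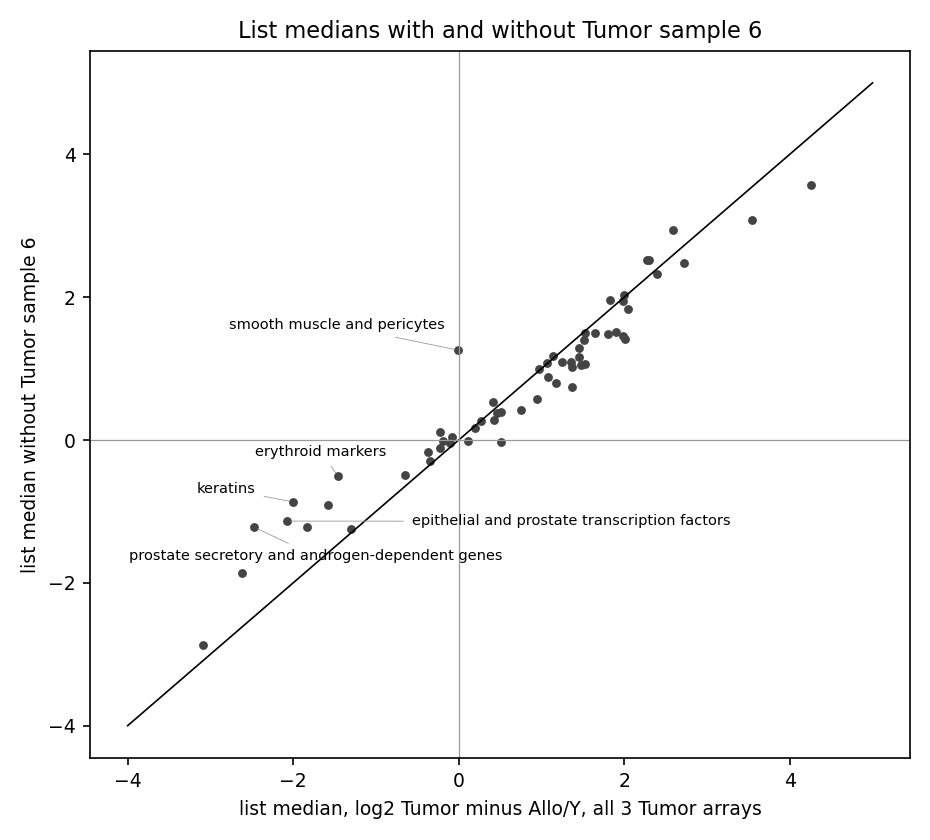
Median log2 difference of each of 59 gene lists with all 3 Tumor arrays (horizontal) and without Tumor sample 6 (vertical), with the line of equality and names for lists that moved by more than 0.9. Smooth muscle and pericyte genes moved from -0.01 to 1.26, while keratins moved from -2.0 to -0.86 and stayed below 0.

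The combined Tumor+Allo/Y transfer at the same time was also set directly against Tumor. In that test, none of 11971 genes was called by limma (0%, smallest adjusted p = 0.9997), and 451 had an unadjusted p under 0.05. Without Tumor sample 6, 1 gene was called, Galnt9, a glycosyltransferase gene of mucin-type glycans named here after its values were seen, higher in the combined group by 1.23 ± 0.13 (adjusted p = 0.0268). Tumor sample 6 lay nearer to samples 7 and 9 of the combined group than to its own, and the part of this in the absence of calls was not tested beyond leaving out sample 6. The comparisons of Tumor and of Tumor+Allo/Y with Allo/Y share the Allo/Y arrays, so list medians are only set side by side. Interferon-inducible GTPases had a median of 2.72 in Tumor and 3.19 in the combined group. T cell receptor genes had 2.27 and 2.26, chitinase-like and alternative activation genes 1.48 and 1.86, neutrophil markers 0.51 and 1.41, and prostate secretory genes -2.47 and -2.40.

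Some genes were read by several probes that differed in call. Prf1, Foxp3, Cd8b1, Pecam1, Irgm1, Adar and Cdh1 are described above. For Casp4, Cd80, Cenpa, Csf2rb, Csf3r, Cd177, Ctso, Gbp2, Gbp5, Il18, Il18rap, Il1rn, Il7r, Itga4, Jak1, Themis, Tirap and Tlr13 the probe used was called and at least 1 other was not, the uncalled values reaching from -0.56 for Jak1 to 1.37 for Tlr13. Near-identical family members, such as Chil3 and Chil4, the Klra genes and the H2 genes, can share hybridisation, so their values are not independent of each other. Robo4, Cdh5, Emcn, Ackr1, Wfdc3, Wfdc6b, Spdef, Elf5, Krt5, Spint2, Defb42, Depp1, Pnliprp1, Mme, Chil1, Cfi and Svs3a were above background on 2 of 3 Tumor arrays, and Sele, Ptprb and Cpt1a on 1 of 3.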

How the data were processed

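Total RNA of CD45+ cells from prostate was hybridised as biotinylated cRNA to Illumina bead arrays, 12 in all. The deposited intensity of each probe is a signal not normalized between arrays, beside the deposited detection p-value of the same array, per the file headers. GenomeStudio was used, per the submitters' processing notes, with version and settings not given in the sources used here. A second table holds the authors' deposited normalized intensity values and served as an alternative. From the raw signals, background was corrected with neqc (limma 3.58.1, R 4.3.3, offset 16) from negative controls inferred from the detection p-values, then quantile normalization and log2 were applied to the deposited intensities.

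Probes passing a detection p of 0.05 on 3 or more of 12 arrays were kept. Of 23054 kept probes, 19235 had 1 gene symbol, 12 several and 3807 none, from the platform annotation. The probe with the highest mean over 12 arrays stands for its gene (4832 genes had more than 1). lmFit and eBayes were run on 4 groups of 3 arrays without covariates, and Benjamini-Hochberg adjusted p-values over 11971 genes were called under 0.05. The p-values measure the spread between arrays, 3 mice a group per the design text. The fit was tested on simulated data first.

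The members, gene lists and tests were chosen with earlier results of these data known. Genes are named by rule: the 15 largest called rises and falls without overlap between groups (unnamed gene models left out), and per list up to 6 largest called, 4 opposed and 3 smallest changes, all members of lists of 8 or fewer genes, genes whose probes differ in call, up to 2 genes in which sample 6 lies farthest from samples 4 and 5, and a fixed set of familiar markers. Promoters came from RefSeq (GRCm38.p6). Alternatives covered background, scaling, filters, probe choice, variance model, minimum fold and each array left out.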

Additional observations from a re-analysis of the deposited data

How the results depend on the processing

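Of 4815 genes called between Tumor and Allo/Y, the count stayed within 1.5 times under other background corrections, the authors' deposited normalized values, both filters on dim probes, the mean of all probes of a gene, the 6 arrays alone, a trended robust variance and array weights. Median scaling gave 1707 genes lower (2226 higher, of 3933), and testing every kept probe gave 8500 probes, 4094 higher and 4406 lower. A minimum fold of 1.5 (limma treat) left 921 genes, 675 higher and 246 lower. With 1 array left out in turn, 2996 to 5336 genes were called, 1496 to 2421 higher and 1500 to 2915 lower, the lowest without Allo/Y sample 1 and the highest without Tumor sample 4. Leaving out sample 1 or sample 3 (3281, of which 1681 lower) took the number lower down by more than 1.5 times. The cause was not tested. For the combined transfer against Tumor the same range was 0 to 1. Array weights gave sample 5 a weight of 0.051 and sample 6 a weight of 0.220, and called 3417 genes.

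Shifting each array to an equal mean of leukocyte genes subtracts 1.95 from every difference by construction, and called 11199 genes, 117 higher and 11082 lower. Turns of sign are listed only for genes of the text called in the main fit or in the alternative. Under this shift they were, by gene, Hadha -1.93, Pfkl -1.92, Lamp1 -1.91, Ms4a1 -1.87, Ccl3 -1.86, Ngp -1.85, Cx3cr1 -1.82, Oas1b -1.71, Il15 -1.71, Siglech -1.71, Adar -1.51, Pdcd1 -1.48, Foxp3 -1.46, H2-K1 -1.39, Tnf -1.28, Irgm1 -1.20, Cd52 -1.20, Il10 -1.20, Psme2 -1.20 and Cd4 -1.15. Smaller ones were Ldha -1.12, Jak1 -1.09, Gbp9 -1.04, Cd74 -1.03, Laptm5 -0.98, Tnfrsf14 -0.89, Csf1r -0.89, Gapdh -0.88, Cenpa -0.82, H2-Aa -0.80, Tnfrsf13c -0.79, Tox -0.78, Themis -0.71, Cybb -0.68, Il1b -0.67, Adgre1 -0.63, Gch1 -0.58, Il18 -0.55, Nr4a2 -0.46 and Ccnd2 -0.42. The smallest were Aim2 -0.40, Icam1 -0.37, Il2 -0.36, Ctsc -0.35, Cfp -0.28, Ccr7 -0.26, Irf1 -0.22, C4b -0.21, Lag3 -0.18, H2-M3 -0.18, Dusp2 -0.18, Galnt9 -0.16, Psmb10 -0.15, Il2ra -0.15, Havcr2 -0.12, Itga4 -0.0850, Il7r -0.0793, Psmb8 -0.0774, Ctss -0.0531 and Ptprc -6.09e-05. By the same rule, other probes turned the sign for Cd8b1 (-0.41), Jak1 (-0.56), Pecam1 (1.09) and Prf1 (2.97, and 1.48 as the mean of its probes). Leaving out sample 6 turned Myh11 (1.58, and from -1.34 over the arrays left out). Turns of genes called in neither fit, such as that of Msmb without sample 6, are not listed. Of the 228 genes named in the text 184 were called, and 167 of these kept their call without each of the 6 arrays in turn. Many were named for large called changes, so that share does not stand for all genes. Of all 4815 calls, 2984 were kept in the same direction without sample 1 and 4516 without sample 4, the lowest and highest of the 6. No paired analysis was possible because the samples are numbered 1 to 12 through the series and the groups share no number.

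With 3 arrays a group, the number of arrays limits the precision, and 8 residual degrees of freedom carry every test. Signals near the background of the array are compressed, so differences of genes above it on some arrays only are read as minimum sizes where a bound is given. Quantile normalization sets every array to one distribution, so a direction is relative to all genes on the array. No group lacks a transfer, and no label gives a scan, chip or extraction batch.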
